A study of Mus musculus with 4 samples.

Results

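The serpin genes Serpina3c, Serpina3k, Serpina3m, Serpina3n, Serpina6, Serpina10, Serpina11 and Serpina12, members of clade A of the serpin family, were followed in the liver of F1 hybrids between 2 mouse strains. They were chosen by gene name among the genes of the mRNA tables. Of the 8 names, 7 were found among the 8797 genes listed, and Serpina3c was not listed. Liver poly(A) RNA was sequenced from 4 female F1 mice aged 5 months, for which no treatment is named. In the cross labelled MB (2 mice) the mother was MSM and the father B6, and in the cross labelled BM (2 mice) the strains of the parents were exchanged. B6 is the common laboratory strain C57BL/6J and MSM is the wild-derived strain MSM/Ms, so every cell of these mice carried an allele of each strain. The reciprocal crosses separate an effect of the strain of an allele from an effect of the parent it came from. The values given for each mouse were its expression in FPKM (sequenced fragments scaled by transcript length and by the total of the library) and its B6-allele frequency, meaning B6 reads as a share of all reads that could be assigned to an allele. A frequency in all 4 mice was given for 3632 genes, including all 7 listed serpins.

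Serpins inhibit proteases by offering a flexible reactive loop as bait, and the protease that cuts the loop is trapped in a covalent complex. Some members of the family no longer inhibit proteases and carry hormones instead. Liver cells secrete most clade A serpins into blood, and in mice the human SERPINA3 gene corresponds to a group of duplicated Serpina3 genes whose reactive loops differ from each other.

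The deposited FPKM values of a mouse summed to between 529024 and 671875, and the median B6-allele frequency of a mouse lay between 0.509 and 0.512. Of 6 hepatocyte markers, 5 were listed (Apoa1, Ttr, Cyp2e1, Cps1 and Ass1) and Alb was not. None of the bile duct, lymphocyte and neutrophil markers examined was listed. As Alb was also missing, absence from the list cannot be read as absence of expression. Of 3 pancreas markers, Cela1 was listed, at 13.5 and 10.6 FPKM in MB mice and 10.6 and 11.8 in BM mice. Cyp2e1 was listed at 0 in both MB mice and at 4876 and 6541 in the others, although it had a frequency in every mouse. Apoa1 (6988 and 6751 FPKM in MB mice, 4844 and 6670 in BM mice), Ttr (4526 and 3950, 2539 and 3305) and Ass1 (276 and 178, 157 and 105) were higher in both MB mice, and Cps1 overlapped between the crosses (1522 and 1855, 1731 and 1571). Of the 33 genes listed at 0 in at least 1 mouse, none was a serpin studied here. The summed FPKM of 3 listed macrophage markers was 91.2 and 83.6 in the MB mice and 126 and 106 in the BM mice. In the same order, 5 endothelial markers summed to 108, 99.2, 113 and 119, and 2 listed stellate cell markers to 94.2, 80.4, 64.6 and 73.6. Most of the stellate sum was Dcn, at 88.9, 73.7, 58.7 and 67.5 FPKM, whereas Reln overlapped between the crosses. In RNA from whole liver, fewer cells of a type and less RNA per cell cannot be told apart.

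All 8 genes lie on chromosome 12, from position 103614786 to 104414329 in build mm10 (GENCODE M21 annotation), a span of 800.0 kb. All 23 protein-coding genes annotated within it are clade A serpins, of which 14 were listed. In order of 3′ end along the chromosome, Serpina10 (chr12:103614786-103631444, minus strand) and Serpina6 (chr12:103646630-103657212, minus strand) are followed by the Serpina1 genes. Next come Serpina11 (chr12:103980243-103989957, minus strand) and Serpina12 (chr12:104028769-104044443, minus strand). The listed Serpina3 members lie at the other end, on the plus strand: Serpina3k at chr12:104338486-104346144, Serpina3m at chr12:104338486-104394257 and Serpina3n at chr12:104406729-104414329. Serpina3c, which was not listed, is on the minus strand, and the 250 bases before its start are at chr12:104153873-104154122, between Serpina12 and Serpina3k. Serpina3m is annotated with a first exon of 60 bases that it shares with Serpina3k. The most similar coding sequences were those of Serpina3k and Serpina3m, at 92.0% identity over the aligned bases, and Serpina3n was 83.8% identical to Serpina3k and 85.2% to Serpina3m. The reactive loop is where these paralogs part, and the stretches of the mm10 reference that encode it are shown for this reason, each within a single exon and on the plus strand, 5′ to 3′, with capitals at the positions that differ among the 3 genes in their alignment. They span chr12:104345269-104345352 for Serpina3k, chr12:104393769-104393858 for Serpina3m and chr12:104413448-104413537 for Serpina3n.
Serpina3k: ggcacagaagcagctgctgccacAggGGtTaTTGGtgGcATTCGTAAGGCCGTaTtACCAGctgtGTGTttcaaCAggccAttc
Serpina3m: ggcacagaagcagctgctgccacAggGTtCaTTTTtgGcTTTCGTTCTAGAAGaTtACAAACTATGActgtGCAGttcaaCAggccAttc
Serpina3n: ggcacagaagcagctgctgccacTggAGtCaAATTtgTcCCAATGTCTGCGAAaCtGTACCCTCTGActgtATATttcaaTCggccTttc
Within this stretch, Serpina3k and Serpina3m differed at 19 of 84 aligned bases (77.4% identity), Serpina3m and Serpina3n at 28 of 90 (68.9%), and Serpina3k and Serpina3n at 31 of 84 (63.1%). Each of these is lower than the identity of the same pair over the whole coding sequence.

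How far the reads of these genes could be told apart was gauged from exact matches between the reference transcripts. Mismatches and the MSM sequence were not considered, so more reads than these shares could be hard to tell apart. Reads were sequenced at 150 bases per end, and of all windows of 150 bases in a member transcript, 0.262% of those of Serpina3k and 0.331% of those of Serpina3m also occurred in a transcript of the other, against none for Serpina3n, Serpina6, Serpina10 and Serpina12. With windows of 75 bases the shares were 7.36%, 9.66% and 1.46% for Serpina3k, Serpina3m and Serpina3n. Serpina11 stood apart, with 40.1% of its windows of 150 bases shared with Gm28577, a gene model on the same strand that overlaps it over an exon of 652 bases (chr12:103985858-103986509). Reads in that exon cannot be assigned to either model by position, and values of Serpina11 are uncertain for that reason. Gm28577 was not among the genes listed.

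Serpina3k, the mouse kallikrein-binding serpin, was by far the most abundant member. It stood at 6027 and 5302 FPKM in the MB mice and at 4001 and 2670 FPKM in the BM mice. It ranked 11 among all 8797 genes by mean FPKM, between rank 7 and rank 27 in single mice, and made up 66.7% to 86.1% of the summed FPKM of the 7 genes. Serpina6, which encodes corticosteroid-binding globulin, the carrier of glucocorticoids in plasma, was next by mean, with 334 and 372 FPKM in the MB mice and 501 and 734 FPKM in the BM mice. The order of Serpina6 and Serpina3m was not the same in every mouse, as Serpina3m, at 301 and 410 FPKM in MB mice and 238 and 264 FPKM in BM mice, exceeded Serpina6 in MB replicate 2. Serpina3n, an acute-phase inhibitor of granzyme B and leukocyte proteases, varied little, at 163 and 176 FPKM in MB mice and 150 and 167 FPKM in BM mice. It stood above Serpina10 in every mouse.

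Serpina10 encodes the protein Z-dependent inhibitor of coagulation factor X. Its FPKM was 121.6 and 97.5 in MB mice and 122.4 in both BM mice. Serpina11 was the steadiest member, at 37.7, 37.2, 38.5 and 37.1 FPKM, the former pair in MB mice, a ratio of highest to lowest mouse of 1.04. Serpina12, which encodes vaspin, an adipokine that inhibits a kallikrein, was the lowest in every mouse, at 16.4 and 11.98 FPKM in MB mice and 8.34 and 8.10 FPKM in BM mice. Together the 7 genes accounted for 0.699% to 1.19% of the FPKM sum of a mouse.

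**Figure D1:**
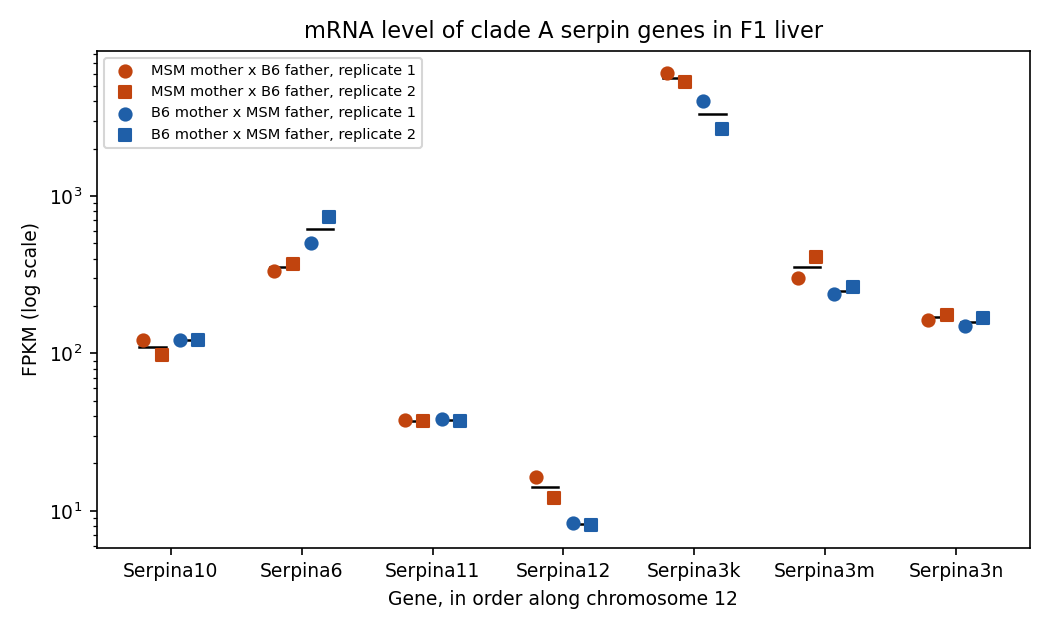
FPKM (log scale) of the 7 listed clade A serpins in each of the 4 mice, with a horizontal line at the mean of each cross. Serpina3k lies between 2670 and 6027 FPKM and Serpina12 between 8.10 and 16.4 FPKM, with Serpina3k higher in both MB mice and Serpina6 in both BM mice.

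Whether the alleles of a gene were expressed unequally was asked with a test of the log2 odds of the frequency, in which 0 stands for equal alleles. The listed serpins split in direction. Serpina3m and Serpina3n were called toward the B6 allele, Serpina6 and Serpina12 toward the MSM allele, and Serpina3k, Serpina10 and Serpina11 were not called. That is 4 of 7 genes at an adjusted p under 0.05 (limma), 2 in each direction, beside 36.2% of all 3632 genes with a frequency, 22.6% toward B6 and 13.6% toward MSM. The median log2 odds was 0.22 over the 7 genes and 0.06 over all genes.

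Among the Serpina3 paralogs, Serpina3m had the largest share of B6 reads, with frequencies of 0.561 and 0.604 in MB mice and 0.603 and 0.594 in BM mice. All 4 values lay above 0.5, with a mean log2 odds of 0.53 (SE 0.06, adjusted p = 0.0151, limma). Serpina3n was also above 0.5 in all 4 mice, at 0.545 and 0.543 in MB mice and 0.534 and 0.528 in BM mice, and its log2 odds was 0.22 (SE 0.04, adjusted p = 0.0340, limma). Leaving out any single mouse ended the call of Serpina3n (limma adjusted p from 0.117 to 0.155), as did shifting each mouse to a median of 0.5 (adjusted p = 0.0705, limma). Without MB replicate 2 or without either BM mouse, Serpina3m was not called either (limma adjusted p from 0.0561 to 0.0990).

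Serpina3k was below 0.5 in all 4 mice, at 0.475 and 0.478 in MB mice and 0.484 and 0.478 in BM mice. Its log2 odds was -0.12 (95% interval -0.25 to 0.00, adjusted p = 0.105, limma). The spread of its frequency over the 4 mice (SD 0.00395) was smaller than that of most genes, since 98.7% of the 3632 genes had an SD at least as large. Thus 3 neighboring paralogs ran from slightly below to clearly above equal allele shares, and the frequencies of Serpina3k overlapped with those of neither Serpina3m nor Serpina3n in any mouse.

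Serpina6 had the smallest spread between mice of the listed members with both alleles detected, with frequencies of 0.442 and 0.448 in MB mice and 0.440 and 0.448 in BM mice (SD 0.00391). Its log2 odds was -0.32 (SE 0.04, adjusted p = 0.0168, limma), so that the MSM allele gave more reads in all 4 mice. Without any single mouse the adjusted p lay between 0.0748 and 0.105, above the threshold. Serpina10, its neighbor, was on the other side of 0.5 in all 4 mice, at 0.543 and 0.560 in MB mice and 0.523 and 0.572 in BM mice. Its log2 odds of 0.29 (95% interval 0.07 to 0.50) was not called (adjusted p = 0.0594, limma).

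Serpina11 and Serpina12, next to each other among the listed genes with a frequency and separated in the annotation by Serpina9, which was not listed, stood at opposite ends of the scale. The deposited frequency of Serpina12 was 0 in all 4 mice, which held for 4 of the 3632 genes (0.11%). Its log2 odds of -6.63 (adjusted p = 3.2e-05, limma) is the limit set by placing frequencies below 0.01 at 0.01 and is no estimate of size. With no spread between mice, its SE of 0.0407 came from the variance that limma shares across genes. The SEs of Serpina6 (0.0420), Serpina3n (0.0414) and Serpina3k (0.0414) were close to this value, so their p-values also lean on the shared variance. The numbers of reads behind a frequency are not given in the tables, so how low a B6 share could have been detected is unknown. Serpina12 was the only member with a mean frequency of 0.2 or less, the threshold the study used for MSM-biased genes, a class that held 1.35% of all genes.

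Serpina11 gave frequencies of 1 and 0.6 in MB mice and 0.818 and 1 in BM mice. Each was above 0.5, and the mean of the cross means, 0.855, was past the threshold of 0.8 used for B6-biased genes, as for 1.84% of all genes. The spread of Serpina11 was wide, with an SD of 0.190, which 91 of the 3632 genes (2.51%) reached. The median SD was 0.0194 among 790 genes within 2-fold of its mean FPKM. The number of allele-assigned reads behind the frequencies of Serpina11 is not given, so how much of this spread is read sampling is unknown. Genes matched by FPKM need not match in allele-assigned reads, and values such as 0.6 and 0.818 can come from few reads. This was not tested. The log2 odds was 4.003 (95% interval -0.39 to 8.39, adjusted p = 0.121, limma) and was not called. Without MB replicate 1 the cross means were 0.6 and 0.909 and their mean was 0.755, short of 0.8, leaving 0 members past it, whereas the plain mean of the 3 remaining mice was 0.806.

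**Figure D2:**
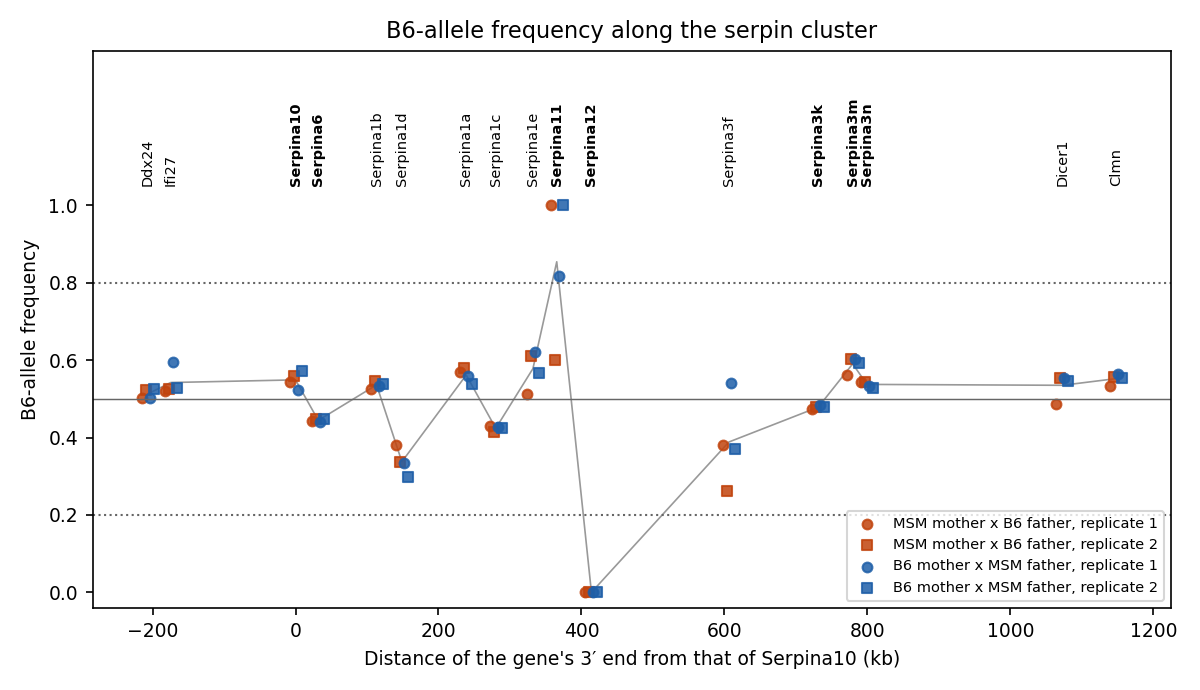
B6-allele frequency in each of the 4 mice for the listed genes with a frequency on and around the serpin cluster, against the distance in kb of each gene's 3′ end from that of Serpina10, with points shifted slightly sideways by mouse. Members are in bold, the gray line joins the means, and dotted lines mark 0.2 and 0.8. Serpina12 is at 0 in all 4 mice next to Serpina11 at 0.6 to 1, while most other genes lie near 0.5.

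The reference sequences upstream of both genes are shown because the allele frequencies parted between them. RefSeq promoters (GRCm38.p6) were found for Serpina3c, Serpina3n, Serpina11 and Serpina12 and not for Serpina3k, Serpina3m, Serpina6 and Serpina10. The 250 bases before the annotated start are given 5′ to 3′ on the minus strand, for the more upstream of the 2 RefSeq starts of Serpina11 at chr12:103989958-103990207 and for Serpina12 at chr12:104044444-104044693, with capitals at motif matches.
Serpina11: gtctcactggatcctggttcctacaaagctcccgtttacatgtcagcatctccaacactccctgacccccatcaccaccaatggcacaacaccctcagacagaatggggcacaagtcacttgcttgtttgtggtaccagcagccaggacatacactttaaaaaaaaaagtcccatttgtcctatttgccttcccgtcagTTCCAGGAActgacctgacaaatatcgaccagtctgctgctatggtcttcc
Serpina12: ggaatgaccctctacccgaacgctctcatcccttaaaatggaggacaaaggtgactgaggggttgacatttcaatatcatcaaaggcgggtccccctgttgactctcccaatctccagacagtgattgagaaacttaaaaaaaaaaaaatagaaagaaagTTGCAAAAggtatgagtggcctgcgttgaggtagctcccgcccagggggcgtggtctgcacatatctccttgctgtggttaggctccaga
The 3 motifs were searched on both strands, and no match overlapped another. The upstream sequence of Serpina11 held a match to the STAT element TTCNNNGAA, 51 to 43 bases before the start, a motif found in 7.02% of 32851 upstream sequences of this length. That of Serpina12 held a match to the C/EBP element TTGCNNAA, 90 to 83 bases before the start, found in 9.56% of them. No match to the forkhead element TGTTTAC (3.17% of sequences) was present upstream of either gene, and none of the 3 motifs matched upstream of Serpina3n or Serpina3c. The sequences upstream of Serpina3n and Serpina3c were 92.7% identical to each other. These are letters of the reference strain, and the MSM sequence was not used here.

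Whether the frequency depended on the parent of origin was asked by comparing the crosses. No listed serpin was called, 0 of 7 beside 0.0826% of all genes (limma, adjusted p from 0.927 to 1, and 0 of 7 at an unadjusted p under 0.05, beside 5.23% of all genes). The B6-allele frequency of Serpina6 averaged 0.445 in MB mice and 0.444 in BM mice, a difference of 0.01 in log2 odds (95% interval -0.25 to 0.26). For Serpina3k the means were 0.476 and 0.481, a difference of -0.03 in log2 odds (95% interval -0.28 to 0.22). The interval for Serpina11 ran from -9.57 to 7.99, so that almost any difference was compatible with its 4 values. Serpina12 was at 0 whether its B6 allele came from the mother or the father. The frequencies of the crosses did not overlap in 2 of 7 genes, Serpina3k and Serpina3n, beside 34.3% of all genes. For Serpina3k the closest values were 0.47813 in MB replicate 2 and 0.47818 in BM replicate 2. With 2 mice against 2, an exact permutation test of a single gene cannot give a p below 0.333.

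Expression was compared between the crosses on log2(FPKM + 1), a scale that understates the change of low genes. None of the 7 serpins passed an adjusted p under 0.05 (limma, adjusted p from 0.373 to 0.979), beside 0.0455% of all 8797 genes. Cyp2e1, listed at 0 in both MB mice, was among the genes called. At an unadjusted p under 0.05 there were 3 members, Serpina12, Serpina3k and Serpina6, beside 8.87% of all genes. The FPKM of both mice of a cross lay above both of the other for 5 of 7 genes (42.4% of all genes), with Serpina3k, Serpina3m and Serpina12 higher in MB mice (23.0% of all genes) and Serpina6 and Serpina10 higher in BM mice (19.4%). For Serpina10 the gap was narrow, from 121.6 FPKM in MB replicate 1 to 122.4 in both BM mice. Its values in the BM mice were equal to all deposited digits, for an unknown reason.

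The difference for Serpina3k, MB over BM, was 0.79 (SE 0.26, 95% interval 0.14 to 1.44), or 1.73-fold on this scale. Serpina3m differed in the same direction by 0.48 (SE 0.20, 95% interval -0.02 to 0.99), whereas Serpina3n differed by 0.10 (SE 0.15, 95% interval -0.28 to 0.47). The direction for Serpina3n turned under quantile normalization (-0.0056). Thus the crosses did not overlap for Serpina3k and Serpina3m, and overlapped for Serpina3n.

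Serpina6 differed in the opposite direction, by -0.78 (SE 0.23, 95% interval -1.35 to -0.21), being lowest in the mice where Serpina3k was highest. The difference for Serpina12 was 0.70 (SE 0.16, 95% interval 0.31 to 1.10), and with the smallest p of the members (unadjusted p = 0.00513, adjusted p = 0.373, limma) it was still not called. Serpina10 differed by -0.17 (95% interval -0.57 to 0.24) and Serpina11 by -0.01 (95% interval -0.31 to 0.28). Of the marker values given above, the macrophage and endothelial sums were lower in both MB mice. The stellate sum, Apoa1, Ttr and Ass1 were higher in both. Clec4g, Lyve1 and Reln, which are part of these sums, overlapped between the crosses. Cyp2e1 had a frequency in both MB mice, so its 0 there cannot be read as a level. The part of the cell type markers in the serpin differences was not tested. The p-values rest on the spread between these 4 mice and on a variance that limma shares across genes.

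**Figure D3:**
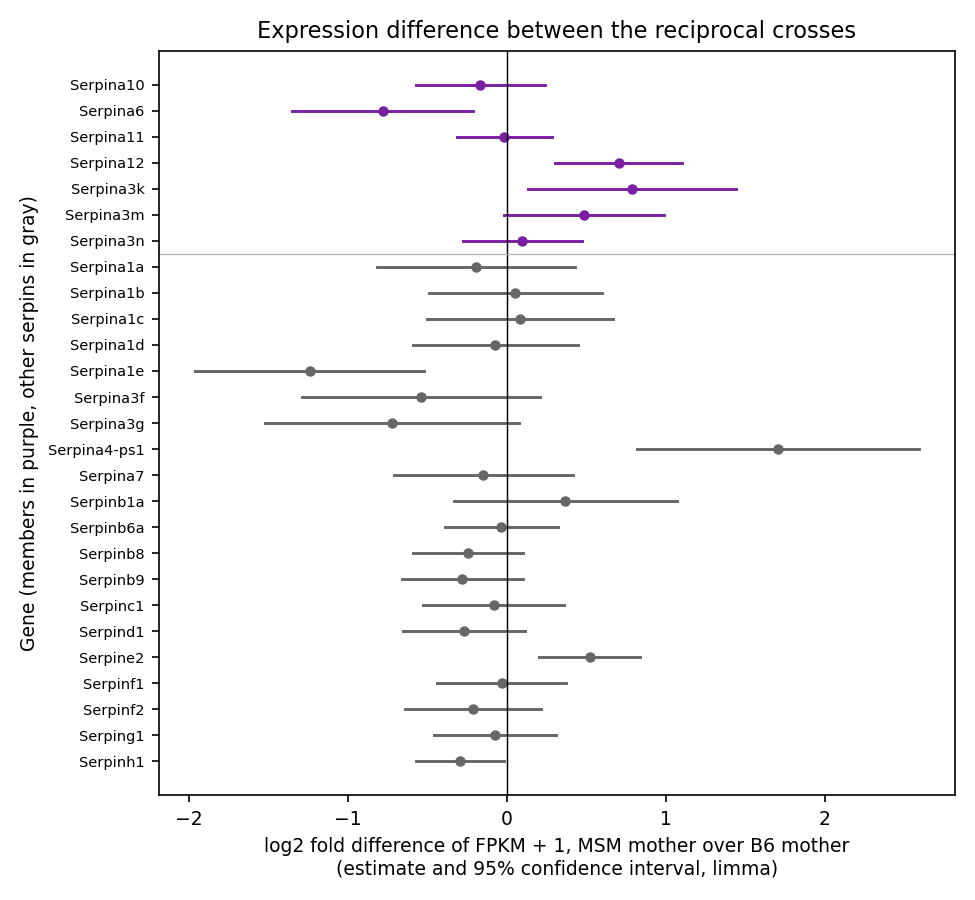
Difference in log2(FPKM + 1) between the crosses, MB over BM, with its 95% confidence interval (limma), for the 7 listed members (purple) and 20 other listed serpin genes (gray). The intervals of Serpina3k and Serpina12 lie above 0 and that of Serpina6 below 0, and none of these genes passed the adjusted threshold.

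In Serpina3k and Serpina6 the total differed between mice far more than the allele share. Multiplying FPKM by the frequency divided each total between the alleles. The B6 part of Serpina3k was 2861, 2535, 1937 and 1277 FPKM and the MSM part 3166, 2767, 2064 and 1394 FPKM, in the order of the mice above. From the highest to the lowest mouse the total differed 2.26-fold, the B6 part 2.24-fold and the MSM part 2.27-fold, while the frequency stayed within 0.00949. In Serpina6 the same ratios were 2.20, 2.22 and 2.18, with the frequency within 0.00799. The parts are computed from the total and the frequency and are no separate measurement. With so steady a frequency, their ratios follow from that of the total. In Serpina12 the frequency of 0 places the whole 2.02-fold range in the MSM part.

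**Figure D4:**
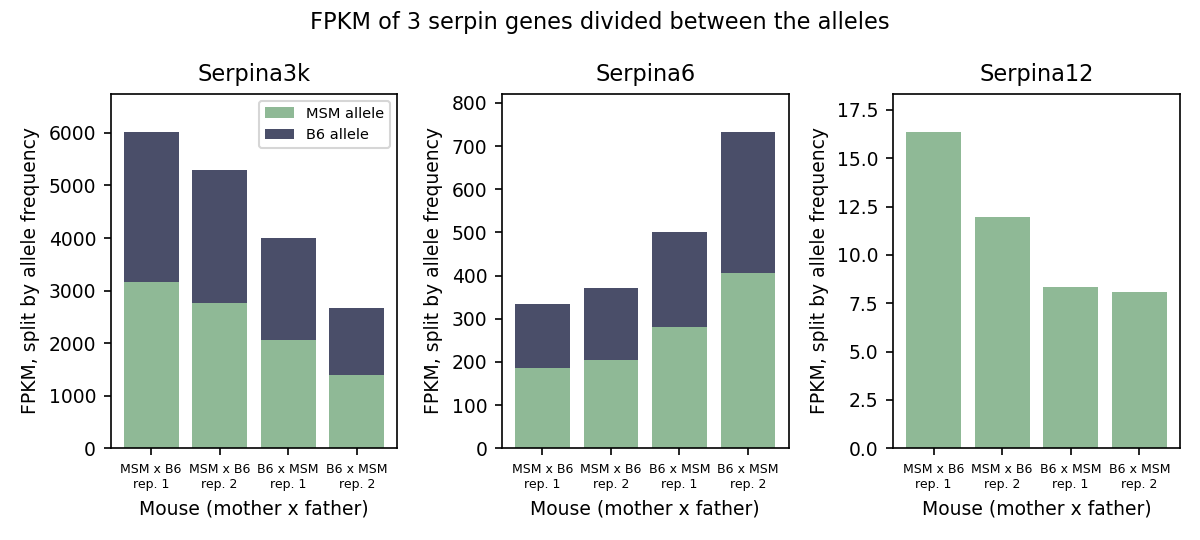
FPKM of Serpina3k, Serpina6 and Serpina12 in each of the 4 mice, named mother x father, divided into MSM and B6 parts by the B6-allele frequency (bars from 0). As their frequencies hardly varied, both parts of Serpina3k and Serpina6 scale with the total, and in Serpina12 the B6 part is 0 in every mouse.

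Neighboring genes of the cluster were compared within each mouse, where both genes are read from the same RNA. Over 12 pairs of clade A serpins that were adjacent among the listed genes with a frequency, ordered by start site, 9 differed in the same direction in all 4 mice, beside 59.3% of 3603 adjacent pairs genome-wide. The median size of the mean difference was 0.125 in the serpin pairs and 0.0666 in all pairs. When genes were ordered by their 3′ ends, a choice made after seeing the data because some gene models start at or beyond a neighbor, 10 of 12 pairs did so, beside 59.4%. In either order, the pairs of Serpina12 with Serpina11 and with Serpina3f are among those counted. As Serpina12 was at 0 in all 4 mice, these pairs could not change direction between mice. An exact sign-flip test over 4 mice cannot give a p below 0.125 (adjusted p = 0.167 over the 12 pairs), so the differences are descriptions.

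Serpina10 exceeded Serpina6 by 0.1003 and 0.112 in MB mice and by 0.0826 and 0.124 in BM mice (mean 0.105 ± 0.0177, SD, n = 4). Serpina3k was below Serpina3m by a similar size, with differences of -0.0863 and -0.126 in MB mice and -0.119 and -0.116 in BM mice (mean -0.112 ± 0.0174, SD, n = 4). Serpina3m exceeded Serpina3n by 0.0161, 0.0604, 0.0691 and 0.0666 (mean 0.0530 ± 0.0249, SD, n = 4), positive in every mouse but small in MB replicate 1. The largest step was from Serpina11 to Serpina12, at 1, 0.6, 0.818 and 1 (mean 0.855 ± 0.190, SD, n = 4). The next listed gene with a frequency, Serpina3f, was above Serpina12 in every mouse, and the mean difference of Serpina12 from it was -0.389 ± 0.115 (SD, n = 4).

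The genes whose expression followed Serpina3k most closely were sought by the largest deviation over the 4 mice, after centering log2(FPKM + 1) of each gene on its own mean. Serpina3k was both the most abundant and the most variable of the members on this scale. The closest was Lcn2, which encodes the acute-phase protein lipocalin 2, at 18.97, 15.9, 11.8 and 7.56 FPKM in the order of the mice above, never deviating by more than 0.04 on the log2 scale. It was followed by Etnppl, an enzyme of phosphoethanolamine breakdown (0.13), and Col5a3, a collagen chain (0.16). With 4 mice and 8797 genes, the likeness is a description of these mice.

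**Figure D5:**
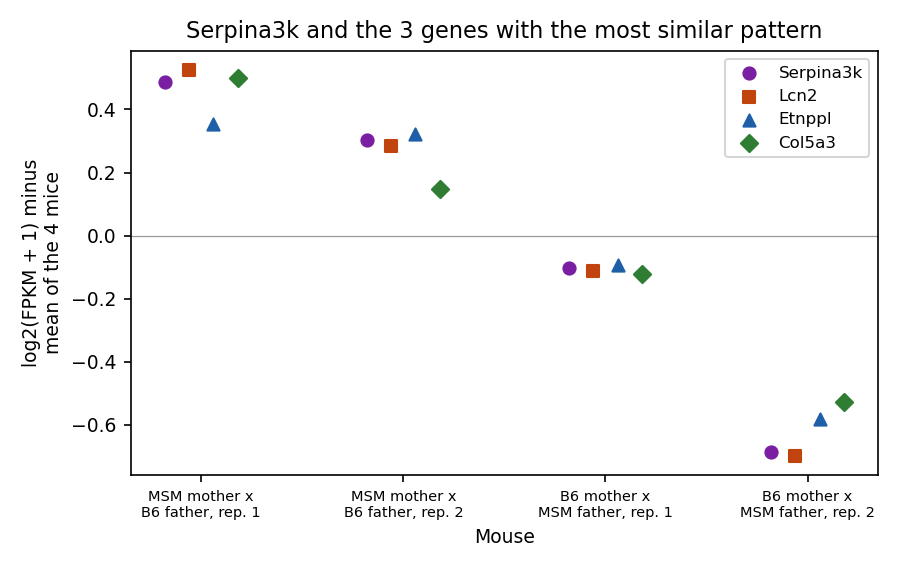
log2(FPKM + 1) of Serpina3k and the 3 genes most like it in each of the 4 mice, minus the mean of the gene over the mice. Lcn2 stays within 0.04 of Serpina3k, and all 4 genes are highest in MB mice.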

How the data were processed

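Liver poly(A) RNA of 4 female F1 mice, 2 per reciprocal cross, was analysed as grouped by the sample labels. Each deposited table gives FPKM for each gene and a fraction, the B6-allele frequency. To make these the authors trimmed reads with Trim Galore, aligned them with strand to mm10 masked at SNP sites with TopHat2, keeping a single location per read, separated alleles with SNPsplit and counted reads per allele with Cuffdiff. The tool that gave the FPKM and all versions are not given in the sources used here. Reads per allele are not in the tables, so no counting interval was computed. Precision was taken from the spread between mice, which limma moderated with a variance shared across genes.

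Frequencies were limited to 0.01 to 0.99 and converted to log2 odds. limma 3.58.1 in R 4.3.3 tested the mean of both crosses against 0 and the difference between crosses over 3632 genes, and log2(FPKM + 1) between crosses, with a variance trend, over the 8797 genes, whose mean FPKM was 1 or more. All were two-sided, with Benjamini-Hochberg adjusted p called under 0.05. In simulated data the imbalance test recovered 178 of 200 genes with a log2 odds of 2 among 3632 genes and called 4 unchanged genes. The test between crosses recovered 194 of 200 with a much larger difference of 6 in log2 odds among 3632 and called 12 others. The expression test recovered 175 of 200 with a log2 fold change of 2 among 8797 and called 6 others. Except for the log2 odds of Serpina11 and Serpina12, the estimates of all members were smaller than these simulated effects. Recovery of effects as small as theirs was not simulated. Python 3.11.15, pandas 2.3.3, scipy 1.17.1, biopython 1.88 and matplotlib 3.10.9 were used. Gene positions and transcripts came from GENCODE M21 (mm10) and promoters from RefSeq.

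The genes named are all listed members, other serpins, genes within 500 kb of the cluster, partner and acute-phase lists, and the 3 genes most like a member. Members and lists were chosen with earlier results of these data known. Alternatives covered frequency limits and scale, pseudocounts, scalings, filters, thresholds, a replicate block and leaving out each mouse.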

Additional observations from a re-analysis of the deposited data

How the results depend on the processing

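Serpina12 was called toward the MSM allele under every alternative run (limma adjusted p from 1.3e-05 to 0.0061), but its frequency is 0 in every mouse and sits at the limit, so leaving out a mouse could not move it and this says nothing about stability. Serpina3n and Serpina6 lost their calls whichever mouse was left out, and Serpina3m lost its call in all but the fit without MB replicate 1. Members called toward B6 numbered 2 in the reported analysis, 1 when each mouse was shifted to a median of 0.5 (Serpina3n was then not called) and 0 to 1 when a mouse was left out. Members called toward MSM numbered 2, and 1 to 1 without a mouse. On the frequency scale Serpina11 was also called (mean difference from 0.5 of 0.355, adjusted p = 0.0433, limma). Over all genes, calls toward B6 and MSM numbered 822 and 494, 705 and 604 after the shift, and 108 to 315 and 73 to 199 without a mouse. The number of members past 0.8 was 1, but 0 with thresholds of 0.9 and 0.1, 0 when every mouse had to pass, and 0 to 1 without a mouse. Neighboring pairs of like direction numbered 9 to 10 without a mouse.

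Expression calls among members stayed at 0 under every alternative except the block below. The direction of the uncalled difference turned for Serpina3n under quantile normalization (-0.0056, adjusted p = 0.9902) and for Serpina11 without BM replicate 1 (range without a mouse -0.0389 to 0.0107, adjusted p from 0.968 to 1, limma). Calls over all 8797 genes were 0 higher and 4 lower in MB mice, and 3 to 8 and 5 to 16 without a mouse.

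Neither labels nor methods state that equal replicate numbers share a litter or day, and deviations of like-numbered mice correlated at 0.146 across genes for the log2 odds and 0.00375 for expression. With a replicate block, 0 members were called toward B6 and 1 toward MSM, and 1 was called for expression, Serpina12 (0.70, adjusted p = 0.00385, limma). Over all genes the block gave 481 and 294 allelic calls, and 133 higher and 152 lower in expression. The depth behind each frequency is not known, which limits Serpina11 and Serpina12 most. The cause of these shifts was not tested.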

Other observations

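Of 20 other listed serpin genes, 11 had a frequency, and 4 were called toward B6 and 3 toward MSM (limma), beside 22.6% and 13.6% of all genes. Serpina7, which encodes thyroxine-binding globulin and lies on the X chromosome, had the strongest MSM share of these, with frequencies of 0.113 and 0.285 in MB mice and 0.141 and 0.0886 in BM mice (log2 odds -2.57, SE 0.35, adjusted p = 0.0185, limma). Serpind1, heparin cofactor II, was above 0.5 in all 4 mice (log2 odds 0.38, SE 0.04, adjusted p = 0.0129, limma). No other serpin was called for expression between the crosses (0 of 20, limma, beside 0.0455% of all genes, and 4 at an unadjusted p under 0.05, beside 8.87%). The crosses did not overlap with higher values in MB mice in 2 of the 20 and in BM mice in 8, beside 23.0% and 19.4% of all genes. The pseudogene Serpina4-ps1, within the cluster, was at 19.1 and 39.9 FPKM in MB mice and 9.63 and 6.27 FPKM in BM mice (difference 1.70, SE 0.36, adjusted p = 0.350, limma). Serpina1e differed the other way, at 44.9 and 26.2 against 69.5 and 97.6 FPKM (difference -1.24, SE 0.29, adjusted p = 0.397, limma). Of 12 listed genes within the cluster or 500 kb of it that were not members, 10 had a frequency, with 3 called toward B6 and 2 toward MSM, beside the same 22.6% and 13.6% of all genes.

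Of 14 genes for partners of the members (target proteases, protein Z and glucocorticoid enzymes and receptors), 9 were listed. None was called for allelic imbalance (0 of 2 with a frequency) or for expression (0 of 9, limma, 0 at an unadjusted p under 0.05). F10, the coagulation factor that Serpina10 inhibits, was at 271 and 229 FPKM in MB mice and 251 and 269 FPKM in BM mice, and Proz, the cofactor protein Z, at 93.9, 104, 113 and 113 FPKM. Of 21 acute-phase genes, 20 were listed, and none was called for expression (limma, 3 at an unadjusted p under 0.05, Saa1, Saa2 and Lcn2, beside 8.87% of all genes). All 3 were higher in both MB mice, as for Saa1 with 77.5 and 57.8 against 32.7 and 33.4 FPKM (difference 1.00, SE 0.17, adjusted p = 0.324, limma). Among the 20, the crosses did not overlap with higher values in MB mice in 8 genes and in BM mice in 2, beside 23.0% and 19.4% of all genes. Of the 5 with a frequency, Hpx was called toward B6 and Fgb toward MSM. The FPKM of Serpina10 was equal to all deposited digits in both BM mice, as for 7 of 8797 genes. Only 1 of these genes, Serpina10, was above 50 FPKM, and the reason for the equal values is unknown.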
